A study of Homo sapiens with 6 samples.

Results

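The 51 genes described here encode the machinery that degrades mRNA in human cells: 12 genes of the RNA exosome, the exonucleases XRN1 and XRN2, 5 decapping genes, 7 genes of the LSM ring, 9 of the CCR4-NOT complex, the deadenylases PAN2-PAN3 and PARN, 6 genes of nonsense-mediated decay, both genes of the SKI complex listed and 5 genes of proteins that bind AU-rich elements (AREs). They were listed by function and taken by gene symbol, with no threshold on their values, from 21662 symbols that remained after small RNAs were removed. The list was drawn up with earlier results of these data known. All 51 were found, and all 51 were among the 11134 genes with a mean FPKM (fragments per kilobase of transcript, scaled to the mapped reads) above 1 in the control or the lyophilized samples. The values are levels of the mRNAs that encode these proteins and say nothing of the proteins or of their activity.

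Poly(A)-selected RNA-Seq was run on 3 control and 3 lyophilized samples of GM12873, a B-lymphoblastoid cell line. The labels give replicate numbers only. Each lyophilized sample was paired with the control of the same number, as in the sample pairs that the study lists. Control cells were washed in PBS and lysed in a guanidinium-phenol reagent. Lyophilized cells were washed likewise, freeze-dried in 0.1 M trehalose in PBS, kept for 2 weeks at room temperature and then lysed in that reagent. All samples thus come from a single line, the controls held no trehalose and were not stored dry, and freezing, drying and storage cannot be told apart in this comparison. The comparison asks which mRNAs are found at another level in the lyophilized powder than in fresh cells. All 8 markers of B cells had a mean above 1 FPKM (2.90 to 2311), and of 9 markers of other cells only NKG7 did (5.63). The summed FPKM of those 9 ran from 5.401 to 7.39 in the controls and from 5.06 to 8.58 in the lyophilized samples, and HBB was listed at 0 throughout. Read depth is not in the tables. The steps between low values gave depths of 1, 1.38 and 1.66 for controls 1 to 3 relative to control 1, and of 1.89, 1.84 and 1.53 for lyophilized samples 1 to 3.

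Bulk decay of an mRNA usually starts with shortening of its poly(A) tail by the deadenylases PAN2-PAN3 and CCR4-NOT. The LSM ring and the decapping enzyme DCP2 then open the 5′ end to XRN1, or the exosome, fed in the cytoplasm by the SKI complex, degrades the body from the 3′ end. Nonsense-mediated decay uses UPF1 and the SMG proteins to bring these enzymes to mRNAs with premature stop codons, and ARE-binding proteins bring them to, or keep them from, mRNAs with AU-rich stretches in the 3′ UTR. FPKM values are relative to the rest of the same library, and in such bulk samples fewer cells with an mRNA and less of that mRNA per cell cannot be told apart.

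The transcripts of these genes differ widely in base composition, and the change after lyophilization was ordered by it, as described further on. Coding stretches of 90 bases from partner genes of 3 complexes, and from EXOSC5 and LSM4, show that contrast. Each is the centre of the longest coding exon of the gene's canonical GENCODE transcript on GRCh37, written 5′ to 3′ along the mRNA with G and C in capitals.
SKIV2L: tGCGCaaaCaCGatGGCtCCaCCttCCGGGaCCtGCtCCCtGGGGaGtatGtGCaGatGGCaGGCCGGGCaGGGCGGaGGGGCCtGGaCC
TTC37: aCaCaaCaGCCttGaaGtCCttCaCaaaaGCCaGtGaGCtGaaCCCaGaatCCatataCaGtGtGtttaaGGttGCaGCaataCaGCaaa
UPF1: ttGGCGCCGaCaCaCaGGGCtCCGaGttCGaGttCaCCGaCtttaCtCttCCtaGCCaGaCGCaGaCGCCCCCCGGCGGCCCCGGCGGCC
UPF2: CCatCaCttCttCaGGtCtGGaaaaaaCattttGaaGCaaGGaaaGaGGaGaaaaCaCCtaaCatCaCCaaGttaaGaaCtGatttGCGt
CNOT3: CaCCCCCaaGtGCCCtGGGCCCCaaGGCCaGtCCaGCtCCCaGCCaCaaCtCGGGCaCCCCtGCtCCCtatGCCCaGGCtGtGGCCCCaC
CNOT1: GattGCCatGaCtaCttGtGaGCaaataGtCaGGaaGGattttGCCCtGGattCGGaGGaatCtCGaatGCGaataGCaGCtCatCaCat
EXOSC5: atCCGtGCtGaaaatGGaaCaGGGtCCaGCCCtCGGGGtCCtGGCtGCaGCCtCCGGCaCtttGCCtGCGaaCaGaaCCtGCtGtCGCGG
LSM4: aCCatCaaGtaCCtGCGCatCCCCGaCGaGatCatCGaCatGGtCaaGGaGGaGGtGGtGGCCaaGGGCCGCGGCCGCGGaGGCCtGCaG

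G and C make up 68.9% of the SKIV2L stretch in exon 18 of 28 (chr6:31933630-31933719, plus strand) and 43.3% of the TTC37 stretch in exon 19 of 43 (chr5:94857839-94857928, minus strand). The UPF1 stretch, in exon 1 of 24, holds 68.9% (chr19:18943089-18943178, plus strand) and the UPF2 stretch, in exon 3 of 22, 38.9% (chr10:12071088-12071177, minus strand). In CNOT3 the share is 71.1%, in exon 11 of 18 (chr19:54652031-54652120, plus strand), and in CNOT1 it is 45.6%, in exon 31 of 49 (chr16:58577614-58577703, minus strand). The stretches of EXOSC5, in exon 1 of 6 (chr19:41903114-41903203, minus strand), and of LSM4, in exon 4 of 5 (chr19:18420534-18420623, minus strand), hold 63.3% and 65.6%. SKIV2L, UPF1 and CNOT3 fell after lyophilization in the paired fit described next and TTC37, UPF2 and CNOT1 rose in it, while EXOSC5 and LSM4 are GC-rich genes that were not called in that fit.

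The 51 mRNAs covered a wide range of levels. In the controls the mean FPKM ran from 1.52 for CNOT6L to 145.2 for HNRNPD, with a median of 19.15, and 39 members were above 10 FPKM. The 9 members above 50 FPKM were EXOSC5, EXOSC7, LSM2, LSM3, LSM4, LSM6, LSM7, ZFP36 and HNRNPD, so that the small LSM proteins made up the largest group there. Control 1 was the lowest control for 41 of the 51 members (80.4%, against 55.5% of all genes tested) and lyophilized sample 1 the lowest of its group for 37 (72.5%, against 50.9%). Both held for 34 members. Much of the spread between samples of a group was thus shared by the samples of a pair, and across all genes tested the deviations of paired samples from their group means correlated at r = 0.716, 0.603 and 0.476.

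Changes between the groups were small, and they ran in both directions. On the log2(FPKM + 0.1) scale, which understates changes of low values, they lay between -0.66 (ZFP36) and 0.43 (TTC37), with a median of 0.14 against 0.04 over all genes tested. In the fit without the pairing, limma with Benjamini-Hochberg adjustment over all 11134 genes, none of the 51 passed an adjusted p of 0.05, where 0.557% of all genes were called lower and 0.018% higher. The lowest adjusted p of a member was 0.14 (EDC4 and CNOT3), and 9 members had an unadjusted p below 0.05 (7 lower and 2 higher, or 17.6%, against 14.1% of all genes). With the pair as a replicate block (called the paired fit below), 24 members passed. These were 11 lower members, or 21.6% against a background of 14.9%, and 13 higher members, or 25.5% against 15.9%. The count depended on which pairs were used. Without pair 1 it was 15, with 9 lower (17.6%, against 10.8% of all genes) and 6 higher (11.8%, against 9.03%). Without pair 2 it was 33, with 12 lower (23.5%, against 20.1%) and 21 higher (41.2%, against 27.7%). Without pair 3 it was 8, with 6 lower (11.8%, against 7.04%) and 2 higher (3.92%, against 4.26%), so that the calls over all genes moved in the same order. The 8 members called in the paired fit and with each pair left out in turn were EDC4, CNOT3, UPF1, ZFP36, ZFP36L1 and ZFP36L2 (lower) and LSM5 and TTC37 (higher). The share of all genes called in every one of these fits was not computed, so this count has no background beside it.

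Without any model, the 3 lyophilized values lay below all 3 control values in 6 members (EDC4, CNOT3, PAN2, UPF1, SMG5 and SKIV2L; 11.8% against 12.6% of all genes) and above them in 5 (DIS3, LSM7, CNOT2, CNOT7 and TTC37; 9.8% against 9.66%), which is near the background in both directions. The lyophilized sample was lower than its paired control in all 3 pairs for 13 members (25.5%, against 28.8% of all genes) and higher for 21 (41.2%, against 33.4%). Pair 2 had the smallest differences. The median log2 ratio over the 51 members was 0.15, 0.01 and 0.08 in pairs 1, 2 and 3.

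**Figure D1:**
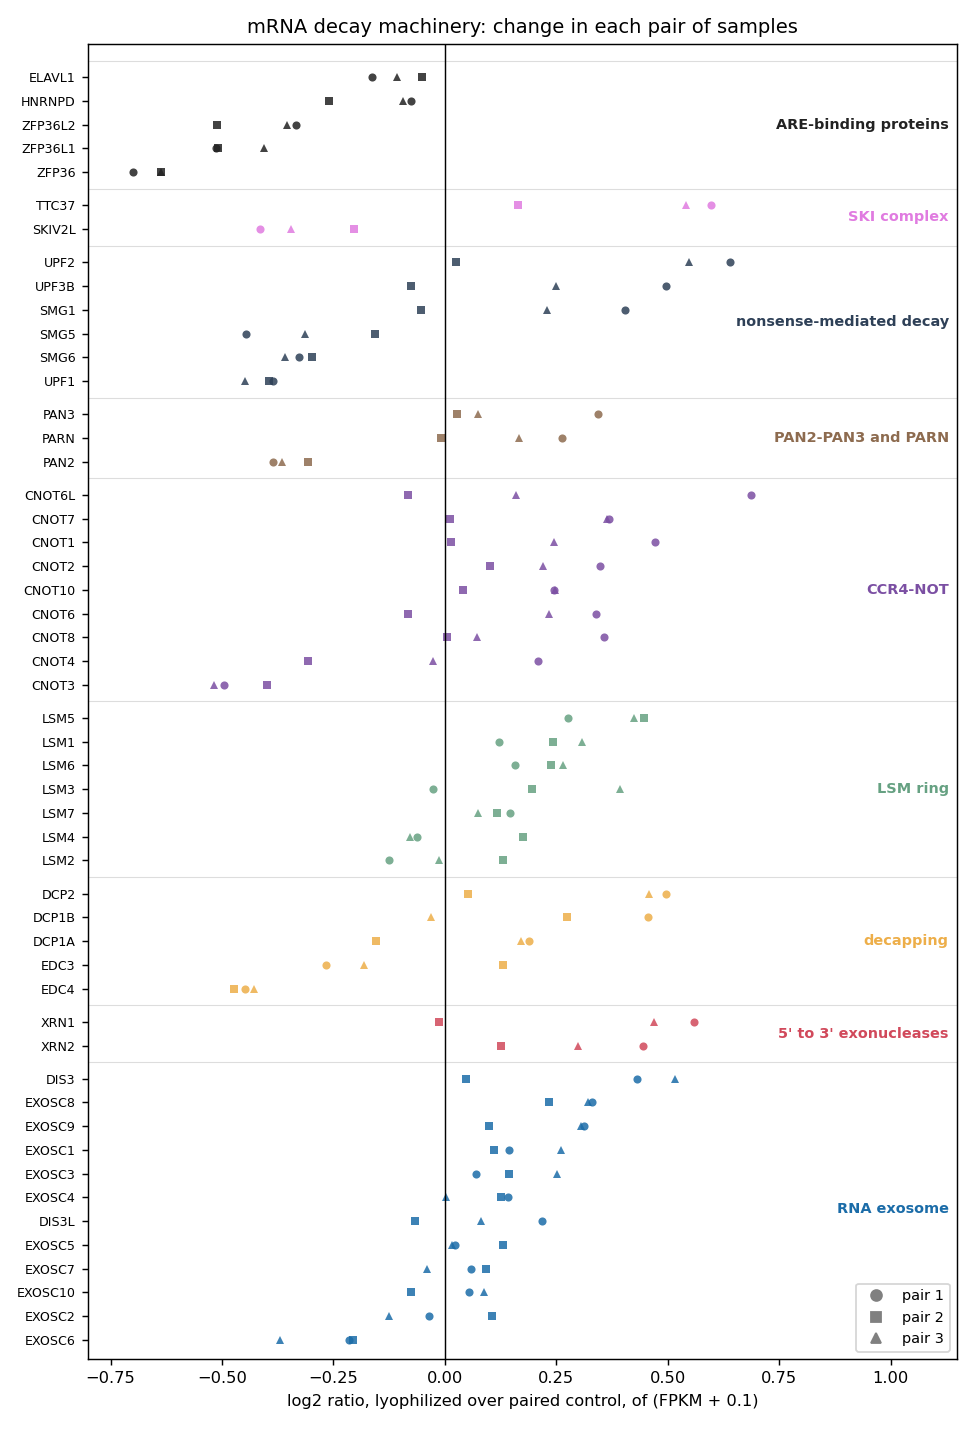
Log2 ratio of lyophilized over paired control FPKM (with 0.1 added) on the horizontal axis for each of the 51 members, grouped and coloured by role, with 1 symbol per pair. All 5 ARE-binding proteins, EDC4, CNOT3, PAN2, UPF1, SMG5, SMG6, SKIV2L and EXOSC6 lie left of 0 in the 3 pairs, and the squares of pair 2 lie nearer to 0 than the other symbols for many members on the right.

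The RNA exosome is a barrel of EXOSC4 to EXOSC9 with a cap of EXOSC1 to EXOSC3, to which the ribonucleases DIS3, DIS3L or EXOSC10 are attached. In the paired fit EXOSC8, EXOSC9 and DIS3 rose, EXOSC6 fell and the other 8 of the 12 genes were not called. DIS3, which carries the processive exonuclease, measured 9.08, 12.2 and 9.86 FPKM in controls 1 to 3, against 12.3, 12.6 and 14.2 FPKM in their lyophilized partners. The lyophilized values lay above the controls, the nearest being those of control 2 and lyophilized sample 1, and the log2 fold change was 0.33 ± 0.10 (SE; limma adjusted p = 0.032 paired, 0.34 without the pairing). EXOSC8 and EXOSC9, barrel subunits of the RNase PH type, had log2 fold changes of 0.29 ± 0.06 and 0.24 ± 0.06 in the paired fit (adjusted p = 0.0075 and 0.023).

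EXOSC7, another barrel subunit and the most abundant exosome mRNA, measured 62.3, 64.9 and 58.9 FPKM in the controls against 64.8, 69.2 and 57.3 FPKM after lyophilization. These ranges overlapped, and its log2 fold change was 0.04 ± 0.11 without the pairing (adjusted p = 0.90) and 0.04 ± 0.05 with it (0.61). The barrel subunit EXOSC6 had 11.1, 14.2 and 15.2 FPKM in the controls against 9.54, 12.3 and 11.8 FPKM after lyophilization. It was lower in each pair, with a log2 fold change of -0.26 ± 0.08 (adjusted p = 0.028 paired, 0.48 without the pairing), but the tables give this gene a locus that holds only 32.9% of its annotated transcript. EXOSC4 and EXOSC5, at 27.2 ± 4.57 and 56.0 ± 7.97 FPKM in the controls (SD, n = 3), had small log2 fold changes of 0.09 and 0.06 and were not called (paired adjusted p = 0.28 and 0.43). The cap subunits EXOSC1, EXOSC2 and EXOSC3 had log2 fold changes of 0.17, -0.02 and 0.16 and did not pass either. EXOSC10, the nuclear exonuclease, had a log2 fold change of 0.02 and DIS3L, the cytoplasmic counterpart of DIS3, of 0.08.

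Both 5′ to 3′ exonucleases had higher means after lyophilization. XRN2, the nuclear enzyme, measured 25.6, 37.7 and 33.2 FPKM in controls 1 to 3, against 34.8, 41.1 and 40.8 FPKM in their lyophilized partners. The groups overlapped, but each lyophilized sample was above its own control, and XRN2 rose by 0.29 ± 0.07 on the log2 scale in the paired fit (adjusted p = 0.014; 0.29 ± 0.16 and 0.45 without the pairing). XRN1, which removes decapped mRNA in the cytoplasm, was at a much lower level of 4.07 ± 0.15 FPKM in the controls against 5.23 ± 0.98 FPKM after lyophilization (SD, n = 3). It was higher in pairs 1 and 3 and not in pair 2 (log2 ratios of 0.56, -0.01 and 0.47) and did not pass (paired adjusted p = 0.068).

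Of the 5 decapping genes, the scaffold EDC4 fell and the catalytic subunit DCP2 rose in the paired fit. EDC4 measured 17.7, 19.9 and 20.0 FPKM in the controls against 12.95, 14.3 and 14.9 FPKM after lyophilization. All lyophilized values lay below all controls, and the log2 ratio was much the same in the 3 pairs. Its log2 fold change was -0.45 ± 0.11 (adjusted p = 0.14) without the pairing and -0.45 ± 0.07 (0.0021) with it, a control mean 1.37 times the lyophilized mean. DCP2 was at 5.66, 8.03 and 7.11 FPKM in the controls against 8.02, 8.33 and 9.80 FPKM after lyophilization. Control 2 lay within the lyophilized range, and the increase was 0.34 ± 0.10 on the log2 scale (paired adjusted p = 0.038, 0.39 without the pairing). The DCP2 activators DCP1A and DCP1B and the scaffold EDC3 had log2 fold changes of 0.07, 0.23 and -0.11, and none of them passed.

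The LSM ring, which binds shortened tails and promotes decapping, had no member called lower, and LSM1, LSM5 and LSM6 rose in the paired fit. LSM5 measured 15.4, 21.5 and 20.9 FPKM in controls 1 to 3, against 18.7, 29.4 and 28.01 FPKM in their lyophilized partners. Sample 1 was the lowest of each group, so that the groups overlapped, but each lyophilized sample was above its own control, and the log2 fold change was 0.38 ± 0.07 (adjusted p = 0.0039 paired, 0.43 without the pairing). LSM7, the most abundant mRNA of the ring, had between 128.2 and 131.6 FPKM in the 3 controls and 145.6, 140.9 and 135.1 FPKM after lyophilization. Its groups did not overlap, yet at 0.11 ± 0.10 without the pairing (adjusted p = 0.63) and 0.11 ± 0.05 with it (0.083) the difference did not pass. LSM1 and LSM6 had paired log2 fold changes of 0.22 ± 0.06 and 0.22 ± 0.05 (adjusted p = 0.026 and 0.012), and LSM3 had 0.19 ± 0.07 (0.075). LSM2 and LSM4 had means of 98.0 and 97.3 FPKM in the controls and of 98.0 and 98.4 FPKM in the lyophilized samples, with log2 fold changes of -0.003 and 0.01. LSM2 to LSM7 also belong to the nuclear ring that binds U6 RNA.

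Among the 9 CCR4-NOT genes the scaffold CNOT1, its partner CNOT2 and the deadenylase CNOT7 rose in the paired fit, CNOT3 fell and 5 were not called. CNOT1, the largest mRNA signal of the complex, measured 29.2, 41.4 and 37.9 FPKM in controls 1 to 3, against 40.5, 41.8 and 44.9 FPKM in their lyophilized partners. The difference rested on pairs 1 and 3, since pair 2 differed by a log2 ratio of only 0.01, and the log2 fold change was 0.24 ± 0.08 (adjusted p = 0.047) in the paired fit and 0.24 ± 0.15 (0.48) without the pairing. CNOT3, which sits with CNOT2 at the end of that scaffold, had 15.1, 17.0 and 16.7 FPKM in the controls against 10.7, 12.9 and 11.6 FPKM after lyophilization. All lyophilized values lay below all controls, and the log2 fold change was -0.47 ± 0.12 without the pairing (adjusted p = 0.14) and -0.47 ± 0.07 with it (0.0023).

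CNOT2 measured 14.4, 17.5 and 16.5 FPKM in the controls against 18.3, 18.8 and 19.2 FPKM in the other group, without overlap (0.22 ± 0.07, paired adjusted p = 0.044). CNOT7 had 29.2 ± 3.22 FPKM in the controls against 34.6 ± 1.87 FPKM after lyophilization (SD, n = 3). The other catalytic subunits CNOT8, CNOT6 and CNOT6L had log2 fold changes of 0.14, 0.16 and 0.25 that did not pass, nor did those of the ubiquitin ligase CNOT4 (-0.04) and of CNOT10 (0.18). In the second deadenylase, PAN2 is the catalytic subunit and PAN3 its adaptor. PAN2 measured 12.5, 10.9 and 12.55 FPKM in the controls against 9.54, 8.76 and 9.72 FPKM after lyophilization, with no overlap, and it fell by 0.35 ± 0.08 on the log2 scale in the paired fit (adjusted p = 0.0093, 0.24 without the pairing). PAN3 had a log2 fold change of 0.15 and was not called. PARN, the poly(A)-specific ribonuclease and the most abundant mRNA of these 3, had 14.4, 22.1 and 18.6 FPKM in the controls against 17.3, 21.98 and 20.9 FPKM after lyophilization. Its groups overlapped over most of their range, with a log2 fold change of 0.14 ± 0.18 (adjusted p = 0.74) without the pairing and 0.14 ± 0.07 (0.16) with it.

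Nonsense-mediated decay had 3 members that fell in the paired fit, UPF1, SMG5 and SMG6, and 1 that rose, UPF2. UPF1, the helicase at its centre, measured 20.3, 21.5 and 23.4 FPKM in the controls against 15.5, 16.3 and 17.1 FPKM after lyophilization. Even the highest lyophilized value was below the lowest control, and the log2 fold change was -0.41 ± 0.06 (adjusted p = 0.0026 paired, 0.17 without the pairing). SMG5, an adaptor that binds phosphorylated UPF1 and the most abundant mRNA of this group, measured 27.5, 27.5 and 27.7 FPKM in controls 1 to 3, against 20.1, 24.7 and 22.2 FPKM in their lyophilized partners. The controls were nearly equal and all lyophilized values lower, and its log2 fold change was -0.31 ± 0.11 without the pairing (adjusted p = 0.28) and -0.31 ± 0.07 with it (0.012).

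SMG6, the endonuclease of the pathway, had 9.17 ± 1.54 FPKM in the controls against 7.29 ± 1.22 FPKM after lyophilization (SD, n = 3), and was lower in each pair (paired adjusted p = 0.016). UPF2, which joins UPF1 to the exon junction complex, was at 7.04, 12.2 and 9.60 FPKM in the controls against 11.03, 12.4 and 14.1 FPKM after lyophilization. Pair 2 hardly differed, and the groups overlapped. The increase was 0.40 ± 0.12 on the log2 scale in the paired fit (adjusted p = 0.027, 0.40 without the pairing). UPF3B and the kinase SMG1 had log2 fold changes of 0.22 and 0.19 that did not pass, and near-identical genomic copies of SMG1 make its FPKM uncertain.

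The SKI complex feeds mRNA into the cytoplasmic exosome. Its helicase SKIV2L fell and its scaffold TTC37 rose in the paired fit. SKIV2L measured 14.7, 15.2 and 14.7 FPKM in controls 1 to 3, against 11.02, 13.2 and 11.5 FPKM in their lyophilized partners. TTC37 measured 13.7, 18.4 and 15.8 FPKM in the controls against 20.8, 20.7 and 23.1 FPKM after lyophilization. Neither gene's groups overlapped. The log2 fold change of SKIV2L was -0.32 ± 0.08 (adjusted p = 0.013 paired, 0.26 without the pairing). That of TTC37 was the largest increase of the 51 genes, at 0.43 ± 0.13 without the pairing (adjusted p = 0.22) and 0.43 ± 0.09 with it (0.0078), a lyophilized mean 1.35 times that of the controls.

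All 5 mRNAs of ARE-binding proteins had a lower value in the lyophilized sample of each pair, as had 28.8% of all genes tested. Of the 5, ZFP36, ZFP36L1 and ZFP36L2 fell in the paired fit, where 14.9% of all genes were called lower. These 3 zinc finger proteins bind UAUUUAU-type elements and recruit CCR4-NOT to the mRNA. ZFP36, also called tristetraprolin, measured 88.6, 39.85 and 61.9 FPKM in controls 1 to 3, against 54.5, 25.6 and 39.7 FPKM in their lyophilized partners. Its level differed more between pairs than between the groups, so that the groups overlapped, but the log2 ratios of -0.70, -0.64 and -0.64 were close to one another. The log2 fold change was -0.66 ± 0.34 without the pairing (adjusted p = 0.42) and -0.66 ± 0.05 with it (2.1e-04), the largest change and the lowest adjusted p of the 51 genes.

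ZFP36L1 followed the same order of pairs, with 58.6, 36.1 and 45.5 FPKM in the controls against 41.0, 25.35 and 34.3 FPKM after lyophilization. Its groups overlapped, and its log2 fold change was -0.48 ± 0.06 (adjusted p = 8.1e-04 paired, 0.39 without the pairing). ZFP36L2 had 12.5, 17.7 and 16.15 FPKM in the controls against 9.92, 12.4 and 12.6 FPKM after lyophilization. Here sample 1 was the lowest of each group, the opposite of the other 2 zinc finger genes, and the log2 fold change was -0.40 ± 0.07 (adjusted p = 0.0052 paired, 0.34 without the pairing).

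HNRNPD, also called AUF1, was the most abundant of all members, with 108.5, 170.7 and 156.3 FPKM in the controls against 102.9, 142.5 and 146.4 FPKM after lyophilization. The overlap was wide, and the log2 fold change was -0.14 ± 0.21 without the pairing (adjusted p = 0.78) and -0.14 ± 0.05 with it (0.059). ELAVL1, also called HuR, which protects ARE-bearing mRNAs, had 20.6 ± 2.82 FPKM in the controls against 19.2 ± 3.29 FPKM after lyophilization (SD, n = 3) and was not called (paired adjusted p = 0.22).

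**Figure D2:**
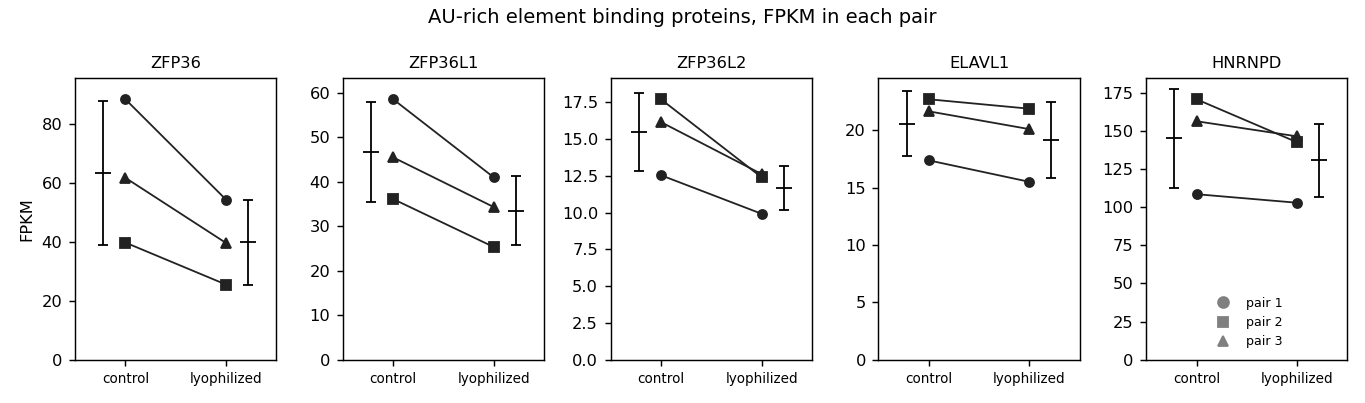
FPKM of the 5 ARE-binding proteins in each control sample and its paired lyophilized sample, joined by a line for each pair, with the group mean and SD (n = 3) in black beside the points. Every line slopes down, while pair 1 (circles) is highest for ZFP36 and ZFP36L1 and lowest for ZFP36L2, ELAVL1 and HNRNPD.

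The mRNAs of the zinc finger proteins carry the element that these proteins bind. With TATTTAT searched on the mRNA strand of the annotated 3′ UTR, overlapping matches counted, each of these 3 has 3 copies. Windows of 30 bases on GRCh37 show them with the element in capitals.
ZFP36: ccttTATTTATgacgacttTATTTATtcta
ZFP36L1: cttatcaaaacgTATTTATtgccaaactat
ZFP36L2: aactatttaactTATTTATtatcttgtgaa

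The ZFP36 window lies at chr19:39899828-39899857 (plus strand) and shows 2 of its copies, the ZFP36L1 window at chr14:69255053-69255082 (minus strand) and the ZFP36L2 window at chr2:43450587-43450616 (minus strand), each with 1 copy. At least 1 TATTTAT was found in 20 of the 51 members (39.2%), against 34.8% of the 10381 tested genes with an annotated 3′ UTR. At least 3 copies were found in 8 members (15.7%, against 6.55%): EXOSC6, DIS3, XRN1, DCP2, ZFP36, ZFP36L1, ZFP36L2 and ELAVL1. Of these 8, EXOSC6 and the 3 zinc finger genes fell in the paired fit, DIS3 and DCP2 rose, and XRN1 and ELAVL1 were not called. Copies were counted over the whole annotated 3′ UTR, while the measured loci of EXOSC6 and DIS3 hold only 32.9% and 69.4% of their transcripts. The shorter ATTTA was present in 41 members (80.4%, against 72.2%). A match of these letters is a description and not a site of binding.

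Within several complexes the levels of partner mRNAs stood in other proportions after lyophilization. The partners set against each other here were chosen after their values were seen, and the ratios are given with no test. The FPKM of SKIV2L over that of TTC37 was 1.07, 0.83 and 0.93 in controls 1 to 3, against 0.53, 0.64 and 0.50 in lyophilized samples 1 to 3. UPF1 over UPF2 had a mean of 2.36 ± 0.56 in the control and 1.31 ± 0.09 in the lyophilized group (SD, n = 3), and CNOT3 over CNOT1 of 0.456 ± 0.055 and 0.277 ± 0.027. For PAN2 over PAN3 the means were 2.11 ± 0.35 and 1.47 ± 0.04, and for EDC4 over DCP2 they were 2.81 ± 0.33 and 1.62 ± 0.10. In each of these 5 ratios the lyophilized value was the lower of every pair and the groups did not overlap. Each sets a member that fell over another of lower transcript GC content that rose or was not called. The direction of these 5 ratios thus follows from the choice of partners. In 5 further ratios, between genes of like function, the groups overlapped, although 3 of them also differed in 1 direction in all 3 pairs: ZFP36 over ZFP36L1 was lower, and CNOT7 over CNOT8 and DIS3 over DIS3L were higher, in each lyophilized sample than in its control. The deadenylases CNOT7 over CNOT8 had 1.57 ± 0.12 and 1.68 ± 0.10, CNOT6 over CNOT6L had 4.80 ± 1.13 and 4.38 ± 0.30, and DIS3 over DIS3L had 1.41 ± 0.35 and 1.68 ± 0.37 in the control and the lyophilized samples. XRN2 over XRN1 had 7.90 ± 1.46 and 7.70 ± 2.09, and ZFP36 over ZFP36L1 had 1.32 ± 0.21 and 1.17 ± 0.16.

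**Figure D3:**
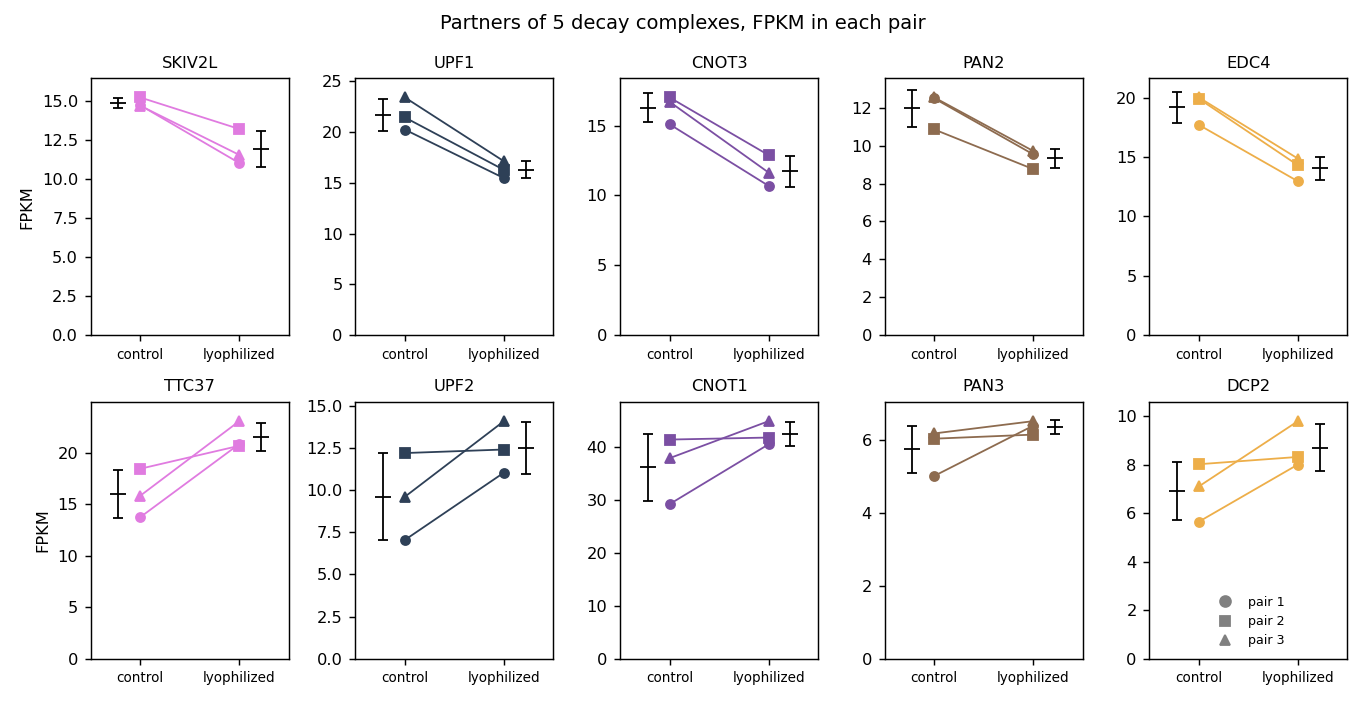
FPKM of both partners of 5 decay complexes in each control sample and its paired lyophilized sample, joined by a line for each pair, with the group mean and SD (n = 3) in black beside the points. SKIV2L, UPF1, CNOT3, PAN2 and EDC4 in the upper row slope down in all 3 pairs, while the lines of TTC37, UPF2, CNOT1, PAN3 and DCP2 below them are level or slope up.

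The members that fell and those that rose in the paired fit were separated by the GC content of their transcripts. The median over the tested genes was 48.7% GC. Of the 21 members above it, 11 fell, none rose and 10 were not called. Of the 30 at or below it, none fell, 13 rose and 17 were not called. EXOSC6 is among the 11 by the part of its transcript inside its locus (63.8% GC). Its whole annotated transcript has 45.8%, which is below the median. Among all genes tested the split ran in the same directions. Above the median GC, 28.9% were called lower (52.4% of the members) and 2.16% higher. At or below it, 0.884% were called lower and 29.9% higher (43.3% of the members). Over the 51 members Spearman's rho between the log2 fold change and transcript GC was -0.81 (-0.77 over all 10853 genes with a transcript). It was -0.85 with the GC content at the last position of codons and 0.08 with transcript length. These are descriptions across genes, which share the same 6 libraries. The pairs were unequal, with rho of -0.78, -0.29 and -0.82 in pairs 1, 2 and 3. The median log2 ratio of the 21 members above the median GC was -0.27, -0.16 and -0.31 in these pairs, and that of the 30 others was 0.33, 0.03 and 0.25, so that pair 2 differed most in the GC-poor members.

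**Figure D4:**
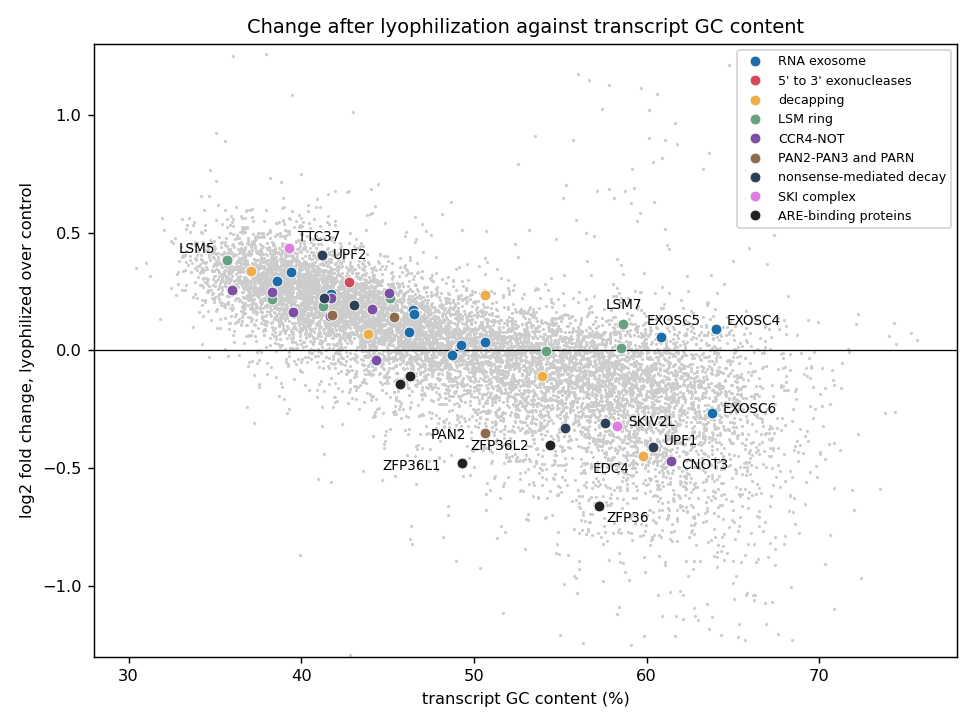
Log2 fold change of lyophilized over control samples, fitted without the pairing, against transcript GC content in percent, for the 51 members coloured by role and for all 10853 tested genes with a transcript in grey (26 genes lie beyond the axes). The members follow the downward band of all genes, with LSM5, TTC37 and UPF2 at the upper left and CNOT3, UPF1 and EDC4 at the lower right. EXOSC4, EXOSC5 and LSM7 lie towards the upper side of the band, and ZFP36, ZFP36L1 and PAN2 towards its lower side.

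GC-rich members differed among themselves by transcript length. The 11 that fell have transcripts of 1700 to 5964 bases (median 3795). The 10 that were not called have 491 to 3744 bases (median 1370). Over all genes above the median GC these medians were 3286 bases for those called lower and 2010 for those not called. The 1700 bases are the part of EXOSC6 inside its locus, by which it also counts as short below, while its annotated transcript has 5163. Above 55% GC, the 6 members of 2000 bases or longer (CNOT3, EDC4, SKIV2L, SMG5, SMG6 and UPF1) had a median log2 fold change of -0.37 against -0.29 over the 1886 genes of that class. The 6 shorter ones (EXOSC4, EXOSC5, EXOSC6, LSM4, LSM7 and ZFP36) had 0.03 against -0.06 over 1488 genes, within which ZFP36 stood at -0.66. Below 42% GC, where the log2 fold changes of all 17 members were positive, the medians were 0.25 for the 13 of 2000 bases or longer and 0.23 for the 4 shorter ones, against 0.28 and 0.25 over all genes of these classes.

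Once the course of the values over GC content was subtracted within each sample and the pairs were kept as a block, 12 members passed: 8 lower (15.7%, against a background of 7.4%) and 4 higher (7.84%, against 9.17%). None of the 13 members that rose in the paired fit passed here. Of the 11 that fell, 7 passed, namely EDC4, CNOT3, PAN2, UPF1, ZFP36, ZFP36L1 and ZFP36L2, and HNRNPD joined them. The adjusted p of TTC37 was 0.061 at a log2 fold change of 0.17, that of UPF2 0.13 at 0.19, that of SKIV2L 0.11 at -0.14 and that of SMG5 0.11 at -0.13. Among the members called in the paired fit, EXOSC6 turned from -0.26 to 0.03, CNOT7 from 0.25 to -0.03 and LSM6 from 0.22 to -0.06. The 4 higher members, EXOSC4 (0.39, adjusted p = 0.0029), LSM7 (0.30, 0.0041), EXOSC5 (0.29, 0.0036) and LSM4 (0.20, 0.018), are short GC-rich genes that had not been called before the correction.

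With transcript length corrected as well, 4 members passed and all were lower (7.84%, against 2.91% of all genes, with 2.74% called higher): ZFP36 (log2 fold change -0.54, adjusted p = 0.0054), ZFP36L1 (-0.44, 0.0085), HNRNPD (-0.23, 0.022) and PAN2 (-0.25, 0.043). The lower call was lost for EDC4 (-0.02, 0.87), CNOT3 (-0.16, 0.083), UPF1 (0.09, 0.28) and ZFP36L2 (-0.21, 0.097), and the 4 short GC-rich genes had adjusted p between 0.071 and 0.78. ZFP36, ZFP36L1 and PAN2 were called lower in all 3 fits with the block, whereas no member was called higher in more than 1 of them. The share of all genes called in all 3 fits was not computed. PAN2 did not pass in the paired fit without pair 3 (limma adjusted p = 0.10). For 7 members (EXOSC3, EXOSC6, DIS3, LSM3, LSM6, CNOT7 and HNRNPD) under 90% of the annotated transcript lies inside the locus of the tables, and GC content and length were taken from the part inside.

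**Figure D5:**
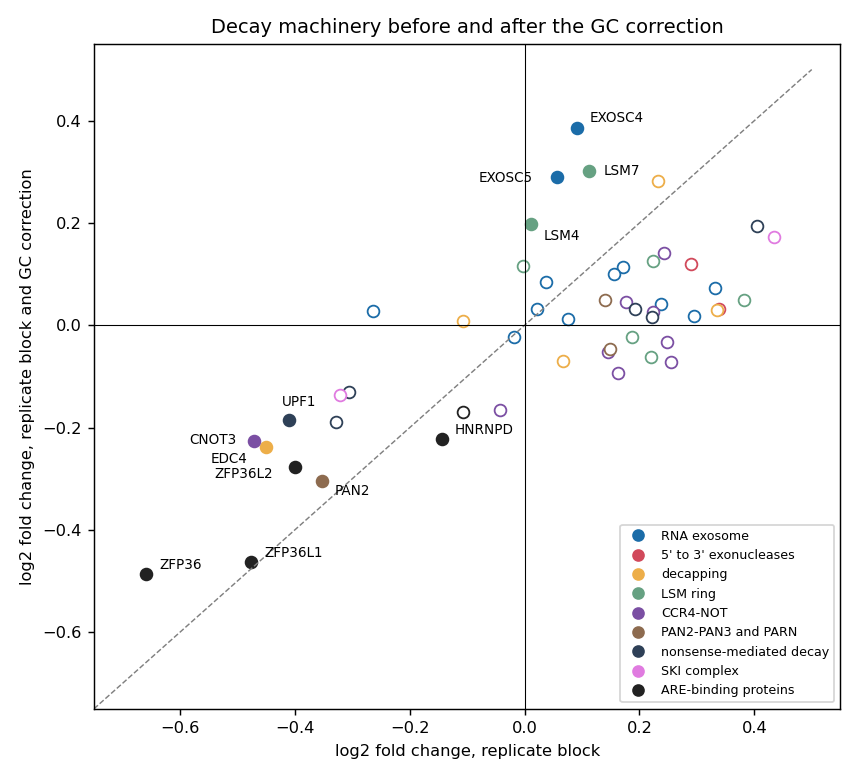
Log2 fold change of the 51 members with the replicate block on the horizontal axis and with the block and the GC correction on the vertical axis, coloured by role, with filled circles for an adjusted p below 0.05 after the correction and a dashed line where both are equal. ZFP36L1, PAN2 and HNRNPD stay near or below the line, most members on the right lie below the line, with open circles above it for DCP1B, EXOSC7 and EXOSC10, and the 4 filled circles above 0 are EXOSC4, EXOSC5, LSM4 and LSM7.

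Further genes of these pathways were read from a second list of 73 cofactors and partners, of which 72 were found and 69 tested. None passed without the pairing (lowest adjusted p = 0.097, with an unadjusted p below 0.05 for 7 of them, or 10.1% against 14.1% of all genes). In the paired fit 12 fell and 12 rose, 17.4% in each direction against 14.9% and 15.9%, and the median log2 fold change was 0.03. With the GC correction 9 were lower (13.0%, against 7.4%) and 3 higher (4.35%, against 9.17%). The paired fit called 7 lower (10.1%, against 10.8%) and 5 higher (7.25%, against 9.03%) without pair 1, 15 lower (21.7%, against 20.1%) and 20 higher (29%, against 27.7%) without pair 2, and 4 lower (5.8%, against 7.04%) and 1 higher (1.45%, against 4.26%) without pair 3.

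The largest decreases among these 69 were those of DHX34, a helicase of nonsense-mediated decay (-0.62 ± 0.11), of PAPD7, a noncanonical poly(A) polymerase (-0.53 ± 0.09), and of TNKS1BP1, a CCR4-NOT partner (-0.53 ± 0.11), with paired adjusted p of 0.0039, 0.0028 and 0.0083. PAPD7 measured 12.5, 11.8 and 12.0 FPKM in the controls against 7.69, 8.93 and 8.45 FPKM after lyophilization, with no overlap. It was also lower after the GC correction (-0.52, adjusted p = 0.0041) and after the GC and length correction (-0.48, 0.021). However, only 76.7% of its annotated transcript lies inside its locus. Both corrections used the 49.4% GC of that part, against 56.9% over the whole transcript. DHX34 was lower after the first correction only (adjusted p = 0.017 and 0.20) and TNKS1BP1 after neither (0.090 and 0.59). The largest increases were those of nuclear exosome cofactors, the helicase SKIV2L2 (0.49 ± 0.10), RBM7 (0.43 ± 0.09) and MPHOSPH6 (0.38 ± 0.09), with paired adjusted p of 0.0083, 0.0086 and 0.016. After the GC correction these 3 had adjusted p of 0.058, 0.33 and 0.51.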

How the data were processed

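Poly(A)-selected, single-end RNA-Seq libraries of 3 control and 3 lyophilized GM12873 samples were used, grouped by their labels and paired by the replicate numbers in them. The study describes them as paired batches of cells. Per the labels and the study's methods, the authors mapped reads to GRCh37 (hg19) with TopHat2 2.0.7 and deposited FPKM values computed with Cufflinks. The Cufflinks version and gene annotation are not given in the sources used here. The deposited FPKM tables hold no counts, the read numbers that the study gives were not used here, and no interval or floor was computed. The library kit does not mark strand, so overlapping genes on opposite strands cannot be told apart.

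The 24934 records were reduced to 23284 symbols by highest mean FPKM, and 1622 small RNA symbols were removed. Genes with a mean FPKM above 1 in either group were tested with limma 3.58.1 (R 4.3.3) on log2(FPKM + 0.1), with a variance trend and Benjamini-Hochberg adjustment over all genes at 0.05. The first fit had the condition only, as in the study's unpaired test. Its count-based test was replaced because FPKM values are not counts. The second fit had the pair as a replicate block. The pairing follows the replicate numbers in the labels and the study's sample pairs, and the deviations of paired samples correlated at 0.476 to 0.716. The other fits with the block subtracted, sample by sample, a loess curve (span 0.3, degree 2) fitted to the GC content of the transcript, with or without its log2 length, for 10853 genes matched to a GENCODE canonical transcript. For the members, 49 matched by symbol and locus and 2 by locus. Sequences were read from GRCh37. The fits were tested on simulated data.

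The members and gene lists were chosen with earlier results of these data known. Full statistics were given for members passing the first fit, those passing the second with an absolute log2 fold change of at least 0.5, the most abundant member of each role, and the 3 further decay genes most changed in each direction. Other members were named after their values were seen. P-values without the pairing rest on the spread between the samples of a group. With the block they rest on the spread of the differences within pairs. Both spreads may be partly technical. Python 3.11.15, numpy 2.4.6, pandas 2.3.3 and matplotlib 3.10.9 were also used. Alternatives covered pseudocount, filters, centring, trend, records, block, corrections, transcript choice and left-out samples.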

Additional observations from a re-analysis of the deposited data

How the results depend on the processing

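No member was called without the pairing under any alternative run. The replicate block moved the calls from 64 to 3423 of all genes, from 0 to 24 members and from 0 to 24 further decay genes. With the GC correction added these counts were 1798, 12 and 12, with the GC and length correction 613, 4 and 5, with the GC correction by longest transcript 1947, 15 and 12, and with the block on median-centred samples 3573, 25 and 26 (the last 2 settings were chosen after the data were seen). Without the block, median centring called 97 genes and the absence of a filter on low values 0 (limma, with 2069 genes at an unadjusted p below 0.05). Leaving out any 1 sample called 0 genes, with 885 to 2110 at an unadjusted p below 0.05. Leaving out a pair with the block called 1257 (without pair 3), 2205 (without pair 1) or 5355 genes (without pair 2), 8 to 33 members and 5 to 35 further decay genes. The members' median log2 fold change of 0.14 was 0.019 with the GC correction, 0.015 with GC and length and 0.019 by longest transcript, 0.021 to 0.23 with 1 sample left out and 0.064 to 0.18 with a pair left out. Among the 27 named members, signs turned for EXOSC6 with the GC correction (0.0277) and for SMG5 (0.0305) and UPF1 (0.0921) with GC and length. LSM4 turned with median centring, with or without the block (-0.0072). Other members also turned with the GC correction, such as CNOT7 (from 0.25 to -0.03) and LSM6 (from 0.22 to -0.06), both higher in the paired fit. With 1 sample left out, values ran from -0.0827 to 0.143 for LSM4, from -0.0241 to 0.285 for PARN, from -0.0894 to 0.165 for EXOSC5, from -0.0598 to 0.222 for EXOSC4, from -0.0247 to 0.112 for EXOSC7 and from -0.34 to 0.0193 for HNRNPD, and with a pair left out from -0.0698 to 0.0563 for LSM4. The cause was not tested. The pseudocount, the stricter filter, the variance trend and the choice of record turned no sign among the 27 named members. Without counts in the tables, no counting error of low FPKM values was computed.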
